A study of Mus musculus with 4 samples.

Results

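The genes described here encode the collagens, the laminin chains and the other main components of the basement membrane in the mouse, followed across vascular, glial and other cell classes of the brain. They were the rows named Col or Lam by chain number, plus Nid1, Nid2, Hspg2, Agrn, Fn1 and Sparc, with at least 20 unique molecular identifiers (UMIs, each tagging 1 captured RNA molecule) over all libraries. Of the 32285 genes measured, 61 matched and 59 were members. Just inside the limit was Col22a1 with 21 UMIs, and the 2 names left out were Col6a4 with 10 UMIs and Col10a1 with 0.

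The study compared wild-type mice given DOCA-salt, a mineralocorticoid and salt regimen that raises blood pressure, with sham mice, in the hippocampus and the sensory cortex. The 4 groups were DOCA-salt hippocampus, DOCA-salt cortex, sham hippocampus and sham cortex, each with 1 droplet single-cell library (a 3′ kit) from tissue dissected on ice. Each group is labelled with 3 mice, and pooling of these animals is not stated; age, sex and strain are not given in the sources used here. Groups follow the sample titles, because the separate treatment field names sham for the DOCA-salt cortex library and DOCA-salt for the sham hippocampus library. With 1 library per group there was no replicate and no test was possible: every interval below is a 95% interval that covers counting error only, and each difference is one between libraries.

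Brain basement membranes are thin sheets laid down where endothelial cells and pericytes meet the end-feet of astrocytes, and where the brain surface meets the meninges. Laminins, trimers of an alpha, a beta and a gamma chain, and collagen IV, a trimer of alpha chains, form separate networks that nidogens and the heparan sulfate proteoglycans perlecan and agrin join. Laminins with the alpha 4 and alpha 5 chains come mainly from endothelial cells, and laminin with the alpha 2 chain from astrocytes and mural cells. Fibrillar collagens build the fibres of the meninges and of vessel adventitia.

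The libraries held 67745118 and 66824217 UMIs in DOCA-salt hippocampus and cortex, against 70173987 and 68152808 in sham hippocampus and cortex, and between 94 and 105 cell barcodes were shared by any pair of libraries. After the cell filter 11086 to 11354 cells remained per library, with medians of 5599 to 5891 UMIs. Cells were put in classes by 15 lists of 10 marker genes, so each class is a range of marker scores and not an identified cell type. Levels are given as CPM, the member's UMIs per 1000000 UMIs of a class in a library, and 6 classes had at least 50 cells in every library. Unless another class is named, the words highest, led and next class below rank these 6 only. A member can lie higher in a smaller class. The endothelial-gated class held 991 and 673 cells in DOCA-salt hippocampus and cortex, against 874 and 709 in sham, of which 16 to 26 lay within 10% of a limit on its inner side and 16 to 22 on its outer side. The pericyte-gated class was small, with 140 and 116 cells in DOCA-salt hippocampus and cortex, against 82 and 65 in sham. The gate itself sets the level of its own markers, so the following values are a description: the pericyte list took 43960 and 37290 CPM in pericyte-gated cells of DOCA-salt hippocampus and cortex, against 39950 and 39910 in sham, and only 640 to 1021 CPM in endothelial-gated cells. Over cells, the median score of the fibroblast list in pericyte-gated cells was 0.2391 to 0.3477 above background, against 3.711 to 3.976 for their own list. The sham hippocampus library stands apart. It held 32 smooth muscle-gated cells, against 2 to 5 in the other libraries, and 2375 of the 2582 cells of 1 oligodendrocyte cluster. Ttr, the choroid plexus transcript for transthyretin, was at 3380 to 4840 CPM in its endothelial, pericyte, astrocyte, oligodendrocyte and microglia classes, against at most 46.9 CPM in these classes of the other libraries. The part of this in the results below was not tested, and Ttr values are repeated beside Col9a3 wherever it passed 1.5-fold.

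The 59 members held 536147 of 272896130 UMIs, and 77.0% of the member UMIs belonged to Fn1 and Sparc. Each member was detected in all 4 libraries, 24 had at least 1000 UMIs and 8 had fewer than 100. The 6 collagen IV chains held 3.37% of the member UMIs, the 5 laminin alpha chains 6.17%, the 6 beta and gamma chains 3.04%, the 4 linkers and proteoglycans 2.32%, the 11 fibrillar collagens 4.25% and the 25 other collagens 3.89%. Of these UMIs 13.5% lay in cells that met the gate of more than 1 class, which hold mixed markers and enter no class. Among the basement membrane members, 49.3% of Nid1, 47.0% of Lamc3, 45.5% of Lamb1, 37.3% of Lama4 and 32.0% of Col4a1 UMIs lay outside every class. Strand and gene models used in counting are not given in the sources used here, so reads of the 20 members that overlap another gene are uncertain, among them Col4a1 and Col4a2, Fn1, Lamb3, Nid2, Col9a3, Col18a1, Lama2, Nid1, Lamc3, Lama3 and Col15a1.

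The 6 collagen IV genes lie in 3 head-to-head pairs whose promoters face each other, and the pairs are shown because the chains of a pair did not always share a cell class. In GRCm38, the transcribed spans of Col4a1 on the minus strand and Col4a2 on the plus strand of chromosome 8 overlap by 22 bases. Col4a4 and Col4a3 on chromosome 1 lie 72 bases apart, and Col4a6 and Col4a5 on the X chromosome 1309 bases apart. The RefSeq windows below, for 5 of the 6 chains, run from 250 bases before to 50 bases after each gene's start on its own strand (build GRCm38.p6), 5′ to 3′. Capitals mark CCAAT or its complement ATTGG and GGGCGG or its complement CCGCCC, the letters of the CCAAT box and the GC box, searched on both strands.
Col4a1 (chr8:11312777-11313076, minus strand): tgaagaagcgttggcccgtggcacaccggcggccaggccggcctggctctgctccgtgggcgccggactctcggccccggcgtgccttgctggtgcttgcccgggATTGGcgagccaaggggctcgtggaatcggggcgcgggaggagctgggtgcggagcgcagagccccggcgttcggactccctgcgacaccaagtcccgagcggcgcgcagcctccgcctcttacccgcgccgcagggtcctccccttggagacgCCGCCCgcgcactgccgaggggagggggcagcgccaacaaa
Col4a2 (chr8:11312555-11312854, plus strand): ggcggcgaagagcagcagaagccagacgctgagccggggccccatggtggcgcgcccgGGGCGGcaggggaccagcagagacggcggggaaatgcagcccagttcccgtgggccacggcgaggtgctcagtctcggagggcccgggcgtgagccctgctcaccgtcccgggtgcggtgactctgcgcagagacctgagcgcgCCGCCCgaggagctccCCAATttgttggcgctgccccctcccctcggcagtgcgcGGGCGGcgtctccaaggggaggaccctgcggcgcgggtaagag
Col4a4 (chr1:82586800-82587099, minus strand): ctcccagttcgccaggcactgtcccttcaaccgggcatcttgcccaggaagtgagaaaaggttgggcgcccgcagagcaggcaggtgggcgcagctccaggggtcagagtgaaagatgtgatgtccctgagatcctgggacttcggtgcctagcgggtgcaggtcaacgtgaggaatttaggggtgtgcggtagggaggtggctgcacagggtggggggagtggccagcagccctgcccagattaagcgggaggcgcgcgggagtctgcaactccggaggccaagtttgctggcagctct
Col4a5 (chrX:141475169-141475468, plus strand): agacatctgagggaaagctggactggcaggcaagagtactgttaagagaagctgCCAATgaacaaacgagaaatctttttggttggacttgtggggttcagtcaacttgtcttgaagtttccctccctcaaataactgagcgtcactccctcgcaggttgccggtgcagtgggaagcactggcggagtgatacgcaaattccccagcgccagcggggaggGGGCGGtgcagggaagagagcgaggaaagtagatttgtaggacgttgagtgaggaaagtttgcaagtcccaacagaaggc
Col4a6 (chrX:141474027-141474326, minus strand): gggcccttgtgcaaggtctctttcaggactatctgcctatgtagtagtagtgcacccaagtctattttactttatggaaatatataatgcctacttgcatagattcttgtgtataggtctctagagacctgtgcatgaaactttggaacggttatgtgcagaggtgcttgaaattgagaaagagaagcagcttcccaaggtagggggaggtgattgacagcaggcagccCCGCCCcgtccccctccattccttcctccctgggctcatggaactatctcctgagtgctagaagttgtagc
The Col4a1 and Col4a2 windows share 78 bases read on opposite strands. Each of these windows holds 1 CCAAT match, with 1 GGGCGG match for Col4a1 and 3 for Col4a2. The Col4a5 window holds 1 of each and the Col4a6 window 1 GGGCGG match, whereas neither motif is in the Col4a4 window, and TATAAA is in none of the 5. Of 32851 promoter windows of this length, 37.4% hold CCAAT, 35.7% GGGCGG and 13.6% TATAAA. A match is a run of letters and not a shown binding site.

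Collagen IV of the alpha 1 and alpha 2 chains is the main scaffold of vessel basement membranes. Of the 6 classes with at least 50 cells in every library, pericyte-gated cells had the highest level of both transcripts in all 4 libraries. Endothelial-gated cells were next. Fibroblast-gated cells, too few to rank, held 31 Col4a1 and 40 Col4a2 UMIs, levels above those of pericytes when pooled over libraries. Smooth muscle-gated cells, also few, held 42 and 43 UMIs, pooled levels above those of endothelial cells. Col4a1 was at 419 and 363 CPM in pericytes of DOCA-salt hippocampus and cortex, against 410 and 558 CPM in sham, and at 259 and 228 CPM in DOCA-salt endothelial cells, against 264 and 266 CPM in sham. Col4a2 was at 299 and 275 CPM in DOCA-salt pericytes, against 350 and 391 CPM in sham, and at 233 and 218 CPM in DOCA-salt endothelial cells, against 298 and 302 CPM in sham. Both were far lower in astrocytes: Col4a2 was at 16.1 and 12.3 CPM in DOCA-salt astrocytes, against 20.5 and 16.2 CPM in sham. Endothelial-gated cells, being more numerous, carried 65.4% of the Col4a1 UMIs of gated cells and 63.7% of those of Col4a2.

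The minor collagen IV chains had other patterns. Col4a3 and Col4a4, whose products join alpha 5 in the kidney filter, had their highest levels in pericyte-gated cells, on few UMIs. Col4a3 had 20 and 7 UMIs in DOCA-salt hippocampus and cortex pericytes, against 6 and 8 in sham, a mean level over libraries of 42.6 CPM compared with 2.15 CPM in the next class. Col4a4 had 13 and 10 UMIs there, against 9 and 1 in sham, with a mean of 31.9 CPM compared with 1.70 CPM. Pericytes are few, however, and held only 24.3% of the Col4a3 UMIs of gated cells and 14.5% of those of Col4a4. The 204 choroid plexus-gated cells of the sham hippocampus library held 62 UMIs (27.0 CPM) of Col4a3, 36.7% of its UMIs in gated cells, and 35 UMIs (15.2 CPM) of Col4a4, while astrocytes held 33.9% of those of Col4a4. Col4a5 was the collagen IV chain of astrocytes as well as of pericytes: 254 and 406 UMIs (23.8 and 16.7 CPM) in DOCA-salt hippocampus and cortex astrocytes, against 136 and 372 UMIs (27.4 and 16.9 CPM) in sham, which made 82.9% of its UMIs in gated cells. Its neighbour Col4a6 had only 14 and 20 UMIs in those DOCA-salt astrocytes, against 3 and 4 in sham (1.31 and 0.824 CPM, against 0.604 and 0.181 CPM), although these made 36.0% of its UMIs in gated cells. The 2 neighbours were found together in the fibroblast-gated cells of the hippocampus, of which there were only 6 in the DOCA-salt and 8 in the sham library: Col4a5 had 13 and 19 UMIs (524 and 475 CPM) and Col4a6 had 13 and 7 UMIs (524 and 175 CPM). A few cells give each of these last values, so they carry no comparison between treatments.

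**Figure D1:**
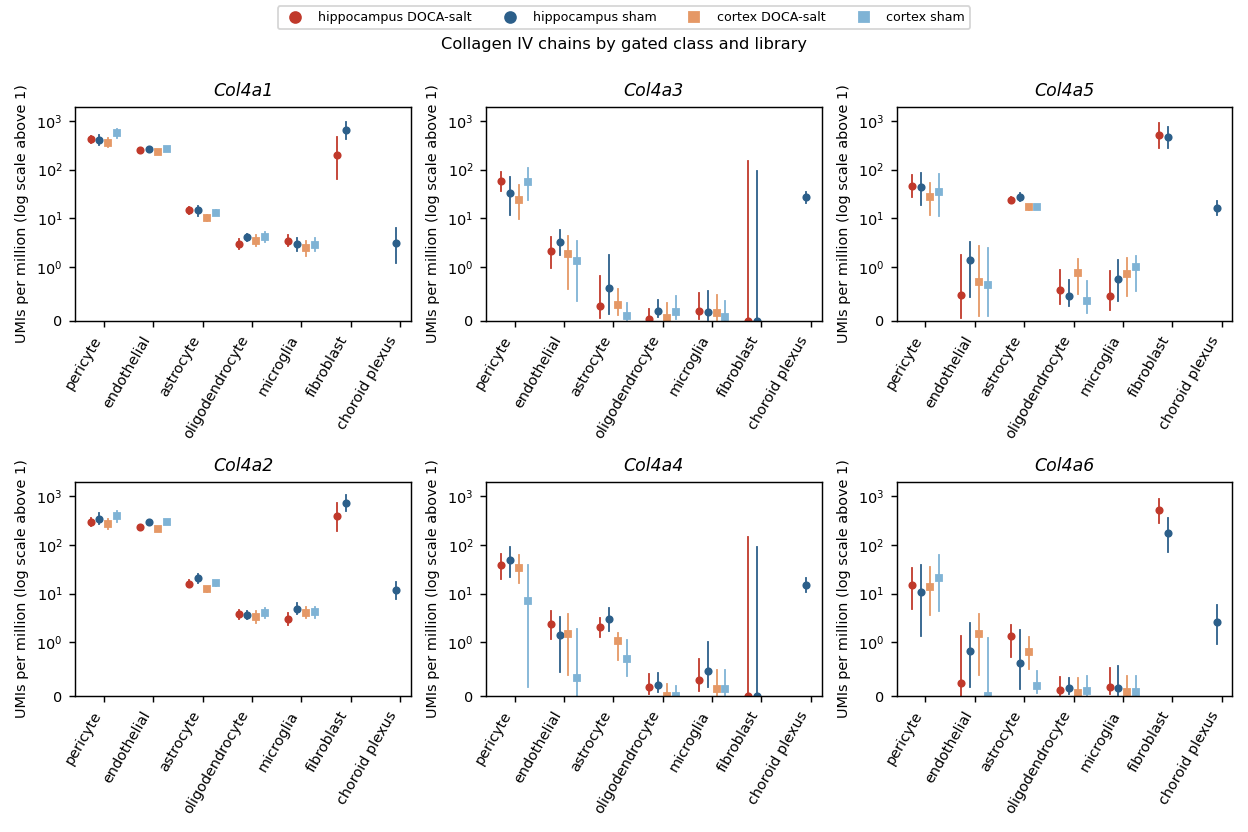
Levels of the 6 collagen IV chains in CPM by cell class and library (y axis logarithmic above 1, linear below), with 1 point per library holding at least 6 cells of the class and 95% Poisson intervals. Col4a1 and Col4a2 sit high in pericyte- and endothelial-gated cells, Col4a5 lies at 16.7 to 27.4 CPM and Col4a6 at 0.181 to 1.31 CPM in astrocyte-gated cells, and both lie higher in the few fibroblast-gated cells.

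Over all members, the pericyte-gated class had the highest level for more members than any other class. Of the 47 members with at least 50 UMIs in the 6 classes, pericytes had the highest mean CPM for 23, and for 18 of these in every library. Astrocytes led for 7, endothelial cells, microglia and oligodendrocytes for 5 each, and border macrophages for 2, each of those 2 in only 1 library. In all, 36 of the 47 had the same leading class in all 4 libraries. This ordering depends on how classes are made: where unsupervised clusters replaced the gate, no cluster was a pericyte class, and endothelial clusters led for 17 members and astrocyte clusters for 16.

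**Figure D2:**
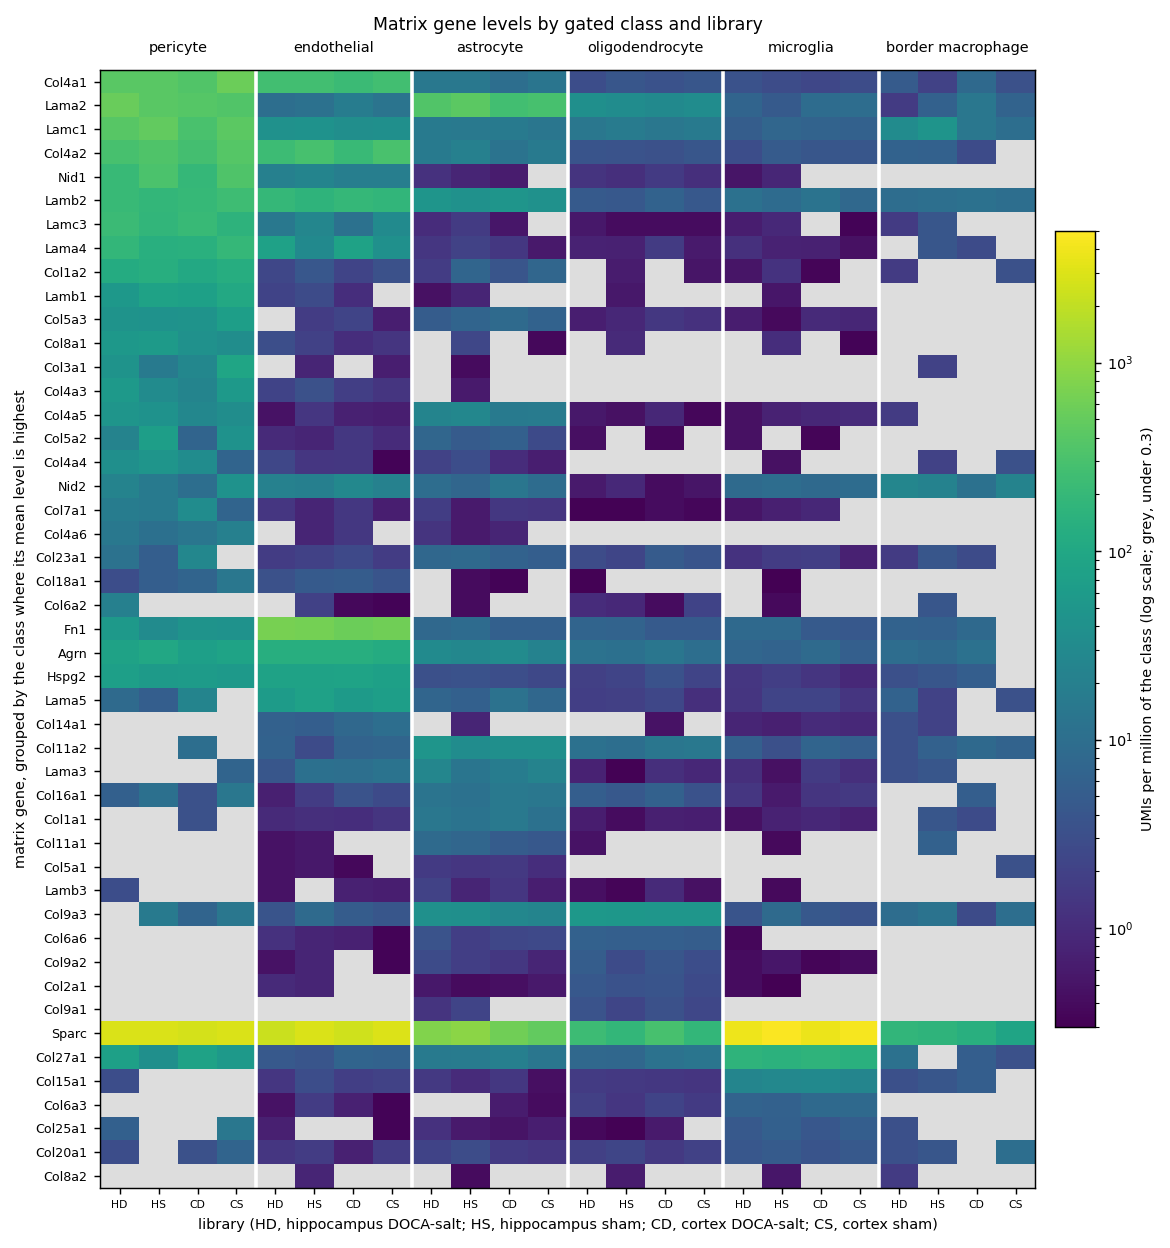
Heatmap of 47 members (rows, grouped by the class where their mean level is highest) in 6 gated classes (column blocks), with the 4 libraries of each class as columns in the order DOCA-salt hippocampus, sham hippocampus, DOCA-salt cortex and sham cortex, coloured by CPM on a log scale and grey under 0.3 CPM. Pericyte-gated cells have the highest mean level for 23 of the rows, and the Col9 genes stand out in oligodendrocytes and Sparc and Col27a1 in microglia.

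The 5 laminin alpha chains divided by class. Lama2, the alpha 2 chain whose loss causes a muscular dystrophy with white matter changes, was high in both pericytes and astrocytes. In astrocytes Lama2 was at 363 and 267 CPM in DOCA-salt hippocampus and cortex, against 431 and 294 CPM in sham, and in pericytes at 549 and 387 CPM, against 410 and 363 CPM. Endothelial-gated cells had only 10.2 and 18.1 CPM of Lama2 in DOCA-salt hippocampus and cortex, against 11.3 and 12.8 CPM in sham, and 80.7% of its UMIs in gated cells were astrocytic. Lama4, the alpha 4 chain of endothelial and mural laminin, was highest in pericytes, at 185 and 146 CPM in DOCA-salt hippocampus and cortex, against 140 and 195 CPM in sham. Lama5, the alpha 5 chain of mature vessel laminin, led in endothelial cells with 62.1 and 59.1 CPM in DOCA-salt libraries, against 79.5 and 69.3 CPM in sham, and a mean of 67.5 CPM compared with 9.49 CPM in the next class. The 32 smooth muscle-gated cells of the sham hippocampus held 25 Lama5 UMIs (238 CPM). Lama3, the alpha 3 chain of epithelial anchoring laminin, was an astrocyte transcript here, with 80.9% of its UMIs in gated cells in that class. Lama1, the alpha 1 chain of the meningeal and embryonic basement membrane, had 117 UMIs in all, and the 14 fibroblast-gated cells held 61.2% of those in gated cells: 13 UMIs (524 CPM) in the 6 cells of DOCA-salt hippocampus and 36 UMIs (900 CPM) in the 8 of sham hippocampus.

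Among the beta and gamma chains, Lamb2, Lamc1 and Lamc3 had their highest level of the 6 classes in pericytes. By share of UMIs in gated cells, Lamc1 was mostly glial: 37.9% in oligodendrocytes and 24.1% in astrocytes, against 13.7% in endothelial cells and 9.61% in pericytes. Astrocytes also held 41.0% of Lamb2 UMIs, and endothelial cells 36.9%. For Lamc3, endothelial cells held 44.5% and pericytes 31.2%. Lamb2, the beta 2 chain of mature vessels, was at similar levels in pericytes (mean 211 CPM) and endothelial cells (mean 185 CPM). The few smooth muscle-gated cells held 65 Lamb2 UMIs, a higher level when pooled over libraries. Lamc1, the gamma chain of most laminins, had a mean of 405 CPM in pericytes and 39.4 CPM in the next of the 6 classes. Lamc3, the gamma 3 chain, had a mean of 194 CPM in pericytes and 20.6 CPM in the next of the 6, and Lamb1, the beta 1 chain, 78.2 CPM compared with 1.5 CPM. Fibroblast- and smooth muscle-gated cells, too few to rank, held 26 and 19 Lamc1 UMIs and 11 and 14 Lamc3 UMIs. Pooled over libraries, these levels were above those of the next class. Lamb1 had another site in the choroid plexus-gated cells of the sham hippocampus, with 125 UMIs (54.4 CPM). Lamb3, the beta 3 chain that pairs with Lama3 in epithelia, was rare: it had 22 and 34 UMIs in DOCA-salt hippocampus and cortex astrocytes, against 4 and 15 in sham.

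The linkers and proteoglycans also divided between the 2 vascular classes. Nid1 encodes nidogen 1, which bridges laminin and collagen IV, and was at 211 and 197 CPM in pericytes of DOCA-salt hippocampus and cortex, against 313 and 342 CPM in sham. Its mean over the libraries was 266 CPM in pericytes and 20.8 CPM in the next class. Nid2, for nidogen 2, had means of 22.9 CPM in pericytes and 22.7 CPM in the next class, and pericytes led in only 1 library. Agrn, for agrin, and Hspg2, for perlecan, led in endothelial cells in all 4 libraries. Agrn was at 131 and 133 CPM in endothelial cells of DOCA-salt hippocampus and cortex, against 134 and 118 CPM in sham, and Hspg2 at 80.8 and 83.1 CPM, against 81.7 and 75.0 CPM. The 4 libraries were thus close together for both.

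Fn1, the fibronectin gene, was the most endothelial of the members, with 84.4% of its UMIs in gated cells in that class. Endothelial Fn1 was at 677 and 562 CPM in DOCA-salt hippocampus and cortex, against 653 and 618 CPM in sham, whereas pericytes had 58.7 and 44.1 CPM, against 32.4 and 41.9 CPM. Sparc encodes a secreted collagen-binding glycoprotein and was the most abundant member. Microglia had 3940 and 3700 CPM of Sparc in DOCA-salt hippocampus and cortex, against 4650 and 4440 CPM in sham, which made 71.1% of its UMIs in gated cells. Its mean was 2830 CPM in pericytes, 2670 CPM in endothelial cells, 708 CPM in astrocytes, 225 CPM in oligodendrocytes and 142 CPM in border macrophages. Border macrophages, myeloid cells like microglia, therefore had the lowest Sparc level of the 6 classes.

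**Figure D3:**
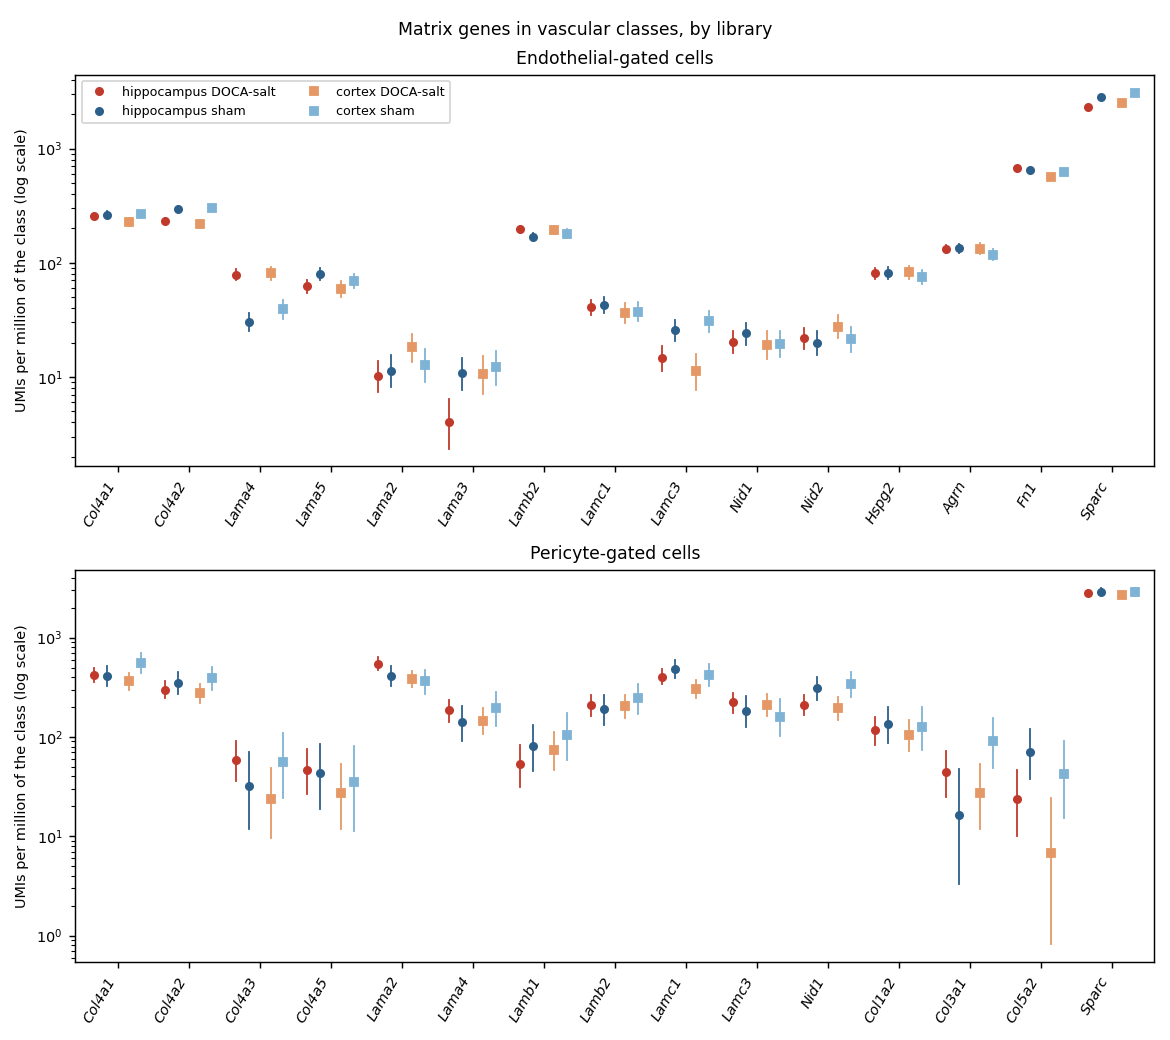
CPM on a log axis, with 95% Poisson intervals, of vascular members in endothelial-gated (top) and pericyte-gated cells (bottom), with 1 point per library, DOCA-salt beside sham in each tissue. The Lama4 points of both DOCA-salt libraries lie above both sham libraries in endothelial cells and the Lamc3 points below, while Hspg2 and Agrn points lie together.

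The fibrillar collagens were not found together. Col1a1 and Col1a2 encode the 2 chains of collagen I, the main fibre-forming collagen, and of the 6 classes Col1a1 had its highest level in astrocyte-gated cells and Col1a2 in pericytes. Col1a1 had 154 and 367 UMIs (14.4 and 15.1 CPM) in DOCA-salt hippocampus and cortex astrocytes, against 61 and 249 UMIs (12.3 and 11.3 CPM) in sham, 82.0% of its UMIs in gated cells, while its mean in pericytes was 0.849 CPM. Col1a2 had 40 and 31 UMIs (117 and 105 CPM) in DOCA-salt pericytes, against 25 and 18 UMIs (135 and 126 CPM) in sham, and 1.69 and 3.87 CPM in DOCA-salt astrocytes, against 7.05 and 7.30 CPM in sham. The far more numerous astrocytes nevertheless held 46.5% of the Col1a2 UMIs of gated cells, and pericytes 17.2%. Both were high in the fibroblast-gated cells of the hippocampus: Col1a2 had 22 UMIs (886 CPM) in the 6 DOCA-salt cells and 71 UMIs (1770 CPM) in the 8 sham cells, and Col1a1 had 18 UMIs (725 CPM) and 44 UMIs (1100 CPM). In oligodendrocytes Col1a1 was at 0.646 and 0.714 CPM in DOCA-salt hippocampus and cortex, against 0.407 and 0.668 CPM in sham. Free RNA was not measured, and its part in the astrocyte value was not tested.

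Col3a1, the chain of collagen III, had 15 and 8 UMIs in DOCA-salt hippocampus and cortex pericytes, against 3 and 13 in sham, and 55.9% of its UMIs lay outside every class. Col5a3 and Col5a2, chains of collagen V, which starts fibre growth, were also highest in pericytes of the 6 classes, with means of 50.3 and 35.6 CPM. Outside these classes, ependymal-gated cells held 93 Col5a3 UMIs and the few fibroblast-gated cells 15 Col5a2 UMIs. Both levels were above those of pericytes when pooled over libraries. Col11a1 and Col11a2 encode chains of collagen XI, a cartilage collagen, and of the 6 classes were highest in astrocytes. The mean for Col11a2 was 39.5 CPM in astrocytes and 12.3 CPM in the next class. Astrocytes had a mean of 6.37 CPM of Col11a1 and held 67.5% of its UMIs in gated cells. The fewer neuron-gated and oligodendrocyte precursor-gated cells held 103 and 19 Col11a1 UMIs, levels above that of astrocytes when pooled over libraries. Col5a1, with 165 UMIs in all, was also highest in astrocytes of the 6 classes, which held 59.2% of its UMIs in gated cells. Col2a1, the cartilage collagen II gene, was in oligodendrocytes for 84.2% of its UMIs in gated cells, at 4.36 and 3.81 CPM in DOCA-salt hippocampus and cortex, against 3.46 and 2.62 CPM in sham. Col27a1, a fibrillar collagen of cartilage, was a microglial transcript: 168 and 165 CPM in DOCA-salt hippocampus and cortex microglia, against 154 and 146 CPM in sham, and 81.2% of its UMIs in gated cells. Col24a1 had 36 UMIs in the 6 classes and was not ranked.

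Several of the other collagens were led by 1 of the 6 classes in all libraries. Of the 6 classes, oligodendrocytes led for all 3 chains of collagen IX, which coats cartilage fibrils. Col9a3 was at 53.6 and 48.7 CPM in DOCA-salt hippocampus and cortex, against 51.5 and 50.2 CPM in sham. Col9a2 was at 5.37 and 3.99 CPM, against 2.76 and 2.93 CPM, and Col9a1 at 3.59 and 3.33 CPM, against 2.30 and 2.36 CPM. The few oligodendrocyte precursor-gated cells, not ranked, held 9 Col9a1, 8 Col9a2 and 68 Col9a3 UMIs. Pooled over libraries, these levels were above those of oligodendrocytes. Col9a3 was higher still in choroid plexus-gated cells of sham hippocampus, with 1160 UMIs (505 CPM). Col6a6, a collagen VI chain, also led in oligodendrocytes, at 6.25 and 5.59 CPM in DOCA-salt libraries, against 5.62 and 5.19 CPM in sham. Microglia led for Col15a1, a basement membrane collagen that also yields an endostatin-like fragment, at 24.9 and 29.7 CPM in DOCA-salt hippocampus and cortex, against 28.0 and 25.4 CPM in sham. Microglia held 85.5% of Col15a1 UMIs in gated cells, and pericytes had 1 UMI in all. The few fibroblast-gated cells, not ranked, held 28 Col15a1 UMIs, a level far above that of microglia when pooled over libraries. Microglia also led for Col6a3 and, in 2 libraries, for the membrane collagen Col25a1, whereas Col14a1, a fibril-associated collagen, led in endothelial cells.

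Other members of this group marked rare classes. Col8a1, a short-chain collagen of vessel and corneal membranes, was at a mean of 46.9 CPM in pericytes, and 74.6% of its UMIs in gated cells came from choroid plexus-gated cells, with 517 UMIs (225 CPM). Its partner Col8a2 had 149 UMIs (64.9 CPM) in choroid plexus-gated cells, 50.9% of its UMIs in gated cells, and 37 and 38 UMIs in ependymal-gated cells of DOCA-salt and sham hippocampus (75.5 and 79.2 CPM). Col6a5 had 51 UMIs in all, and ependymal-gated cells held 89.8% of those in gated cells. Col6a1 had 62.6% of its UMIs in gated cells in neuron-gated cells. Astrocytes led for Col16a1 in 3 libraries, and pericytes for Col7a1 in 4 and Col18a1 in 3. Pericytes also had the highest mean for Col23a1 and Col6a2, but led in only 2 libraries for Col23a1 and 1 for Col6a2. They held 7 Col6a2 UMIs, while oligodendrocytes held 46.5% of those in gated cells. Border macrophages had the highest mean for Col20a1 and Col8a2, on few UMIs and leading in 1 library for each. Col12a1, Col13a1, Col17a1, Col19a1, Col22a1, Col26a1 and Col28a1 had 12 to 49 UMIs in the 6 classes and were not ranked.

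The treatment comparison asks whether the matrix genes of a class differ between DOCA-salt and sham libraries of the same tissue. A member was compared when its class had at least 50 cells in both libraries and the member at least 50 UMIs over both, and it was counted as higher or lower at 1.5-fold. In endothelial-gated cells of the hippocampus 15 members were compared, of which Lama4 was counted as higher, against 5.53% of all genes compared, and Lamc3 and Lama3 as lower, against 3.45%. In the cortex 16 were compared, with Lama4 higher, against 4.96% of all genes, and Lamc3 lower, against 3.27%. A count of 1 or 2 members does not set the group apart from all genes, and the median log2 ratio of the members was -0.05 in hippocampus and -0.08 in cortex, beside 0.03 and 0.02 over all genes. Of the 15 members compared in both tissues, Lama4 was the member higher in both and Lamc3 the member lower in both.

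Endothelial Lama4, the alpha 4 laminin chain, had 331 UMIs in DOCA-salt hippocampus, against 110 in sham, and 222 in DOCA-salt cortex, against 116 in sham. As levels these were 78.5 and 80.5 CPM in the DOCA-salt libraries, against 30.4 and 39.0 CPM in sham, so both DOCA-salt libraries lay above both sham libraries. The ratio of DOCA-salt to sham was 2.58 (interval 2.08 to 3.24) in hippocampus and 2.06 (1.64 to 2.61) in cortex. The share of endothelial cells with a Lama4 UMI was 25.4% and 25.3% in DOCA-salt hippocampus and cortex, against 11% and 14.1% in sham. With every cell thinned to 1000 UMIs these shares were 7.39% and 6.60%, against 2.38% and 2.95%. The share in oligodendrocytes without thinning, a class deeper per cell, was 0.502% and 0.929%, against 0.499% and 0.396%. This is the level in another class and not a measured background. Endothelial cells had medians of 3880 and 3754 UMIs in DOCA-salt hippocampus and cortex, against 3578 and 3771 in sham, and oligodendrocytes 6463 and 5570, against 6445 and 5830.

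Pericyte markers moved in part with this. The pericyte list took 980.3 and 1021 CPM of the endothelial class in DOCA-salt hippocampus and cortex, against 924.6 and 639.5 CPM in sham, and pericytes themselves had 140 to 195 CPM of Lama4. The part of pericyte RNA in the Lama4 difference was not tested beyond these values. Lcn2, for the secreted acute-phase protein lipocalin 2, was at 150 and 129 CPM in DOCA-salt endothelial cells, against 5.25 and 8.07 CPM in sham, and Vwf, for von Willebrand factor, at 333 and 301 CPM, against 157 and 141 CPM. Endothelial cells with no UMI of 5 such genes (Lcn2, Lrg1, Ackr1, Vcam1 and Vwf) numbered 449 and 335 in the DOCA-salt libraries, against 589 and 500 in sham. Among these cells the Lama4 ratio was 2.63 in hippocampus and 2.13 in cortex. This subset was chosen after the data were seen. A cell with no UMI of these genes may still express them, and the part of such expression in the Lama4 difference was not tested.

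Endothelial Lamc3, the gamma 3 laminin chain, went the other way. It had 62 UMIs (14.7 CPM) in DOCA-salt hippocampus, against 93 (25.7 CPM) in sham, and 31 UMIs (11.2 CPM) in DOCA-salt cortex, against 92 (30.9 CPM) in sham, with both DOCA-salt libraries below both sham libraries. The ratio was 0.572 (0.408 to 0.798) in hippocampus and 0.364 (0.234 to 0.552) in cortex. With each cell given equal weight the hippocampus ratio was 0.677 and no longer past 1.5-fold. Pericytes had the highest Lamc3 level of the 6 classes, and the pericyte list in endothelial cells is given above. Smooth muscle and fibroblast transcripts were lower in DOCA-salt endothelial cells: Acta2 was at 3.79 and 3.63 CPM in DOCA-salt endothelial cells, against 21.5 and 12.8 CPM in sham, and Dcn at 1.66 and 0.363 CPM, against 18.2 and 2.02 CPM. The part of RNA from any of these classes in the Lamc3 difference was not tested.

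Lama3 had 17 UMIs in DOCA-salt hippocampus endothelial cells, against 39 in sham, a ratio of 0.374 (0.198 to 0.677), and 29 against 36 in cortex, a ratio of 0.869 (0.514 to 1.46). The main scaffold chains were closer to 1. Col4a1 was at 0.979 (0.896 to 1.07) in hippocampus and 0.858 (0.771 to 0.954) in cortex, and Col4a2 at 0.781 (0.715 to 0.852) and 0.724 (0.652 to 0.804). Sparc was at 0.804 (0.782 to 0.827) and 0.815 (0.790 to 0.841), with 2300 and 2490 CPM in DOCA-salt hippocampus and cortex, against 2860 and 3050 CPM in sham. So Col4a2 and Sparc were lower than in sham in both tissues by less than 1.5-fold. Fn1 was at 1.04 (0.981 to 1.1) and 0.910 (0.850 to 0.974), Lamb2 at 1.17 (1.06 to 1.31) in hippocampus, and Lama5 at 0.781 (0.658 to 0.926). The ratios in hippocampus and cortex were 0.989 and 1.11 for Hspg2, 0.981 and 1.13 for Agrn, 0.849 and 0.986 for Nid1, 1.1 and 1.28 for Nid2, and 0.964 and 0.982 for Lamc1.

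In pericyte-gated cells, with far fewer UMIs, 10 members were compared in hippocampus and none passed 1.5-fold, where 6.91% of all genes compared were higher and 6.91% lower. In cortex 9 were compared, with none higher, against 8.37% of all genes, and Col4a1 and Nid1 lower, against 5.88%. The members' median log2 ratio in cortex was -0.42, beside -0.01 over all genes, and in hippocampus it was -0.00, beside -0.02 over all genes. Col4a1 had 107 UMIs (363 CPM) in DOCA-salt cortex, against 80 UMIs (558 CPM) in sham, a ratio of 0.651 (0.483 to 0.881), while in hippocampus its ratio was 1.02. Nid1 had 58 UMIs (197 CPM) in DOCA-salt cortex, against 49 UMIs (342 CPM) in sham, a ratio of 0.576 (0.387 to 0.860), and 0.675 (0.471 to 0.971) in hippocampus. Lama2 was at 1.34 (1.02 to 1.77) in hippocampus and 1.07 in cortex. Pericyte Lama4 was at 1.32 (0.823 to 2.17) in hippocampus and 0.747 in cortex, and Lamc3 was at 1.22 and 1.31.

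A cluster of 1512 vascular cells held 960 cells that met the gate of more than 1 class. In these, 254 and 213 cells in DOCA-salt hippocampus and cortex and 282 and 211 in sham, the cortex ratios were 0.812 (0.697 to 0.946) for Col4a1 and 0.712 (0.554 to 0.912) for Nid1, so neither was past 1.5-fold. Lama4 was at 1.3 (1.04 to 1.62) in hippocampus and 1.61 (1.22 to 2.14) in cortex there, the cortex value on the other side of 1 from that of pericyte-gated cells. The pericyte list took 16520 and 14870 CPM of these cells in DOCA-salt hippocampus and cortex, against 14930 and 14570 CPM in sham, and the endothelial list 14910 and 12200 CPM, against 15190 and 13040 CPM.

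**Figure D4:**
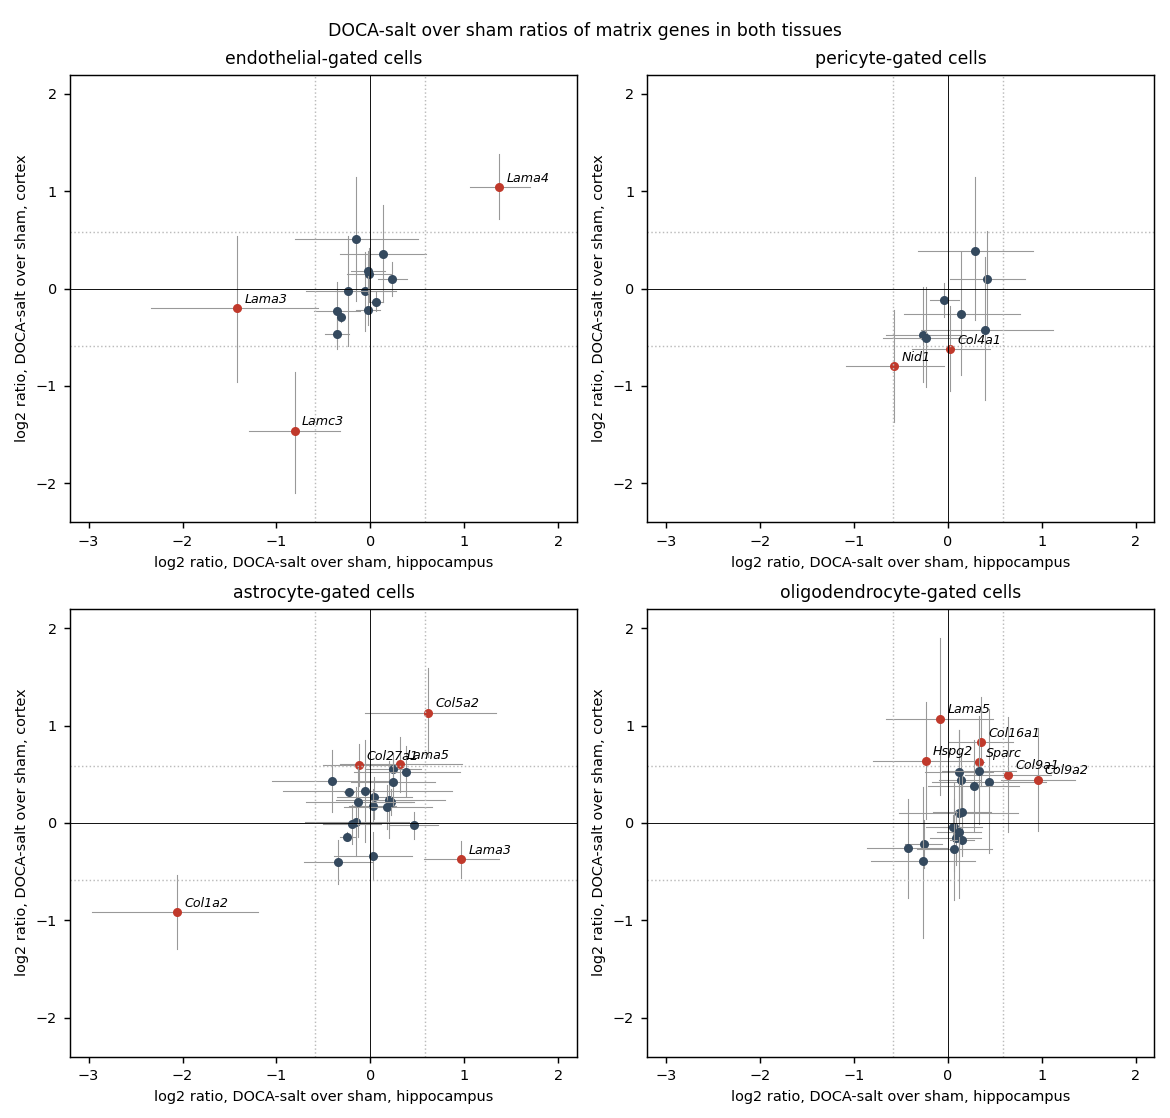
Log2 ratio of DOCA-salt to sham for each member compared in both tissues, hippocampus on the x axis and cortex on the y axis with 95% intervals as lines, in endothelial-, pericyte-, astrocyte- and oligodendrocyte-gated cells, with dotted lines at 1.5-fold and named red points past it in either tissue. In endothelial cells Lama4 lies past 1.5-fold above and Lamc3 below in both tissues, and in astrocytes Col5a2 and Col1a2 do.

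In astrocyte-gated cells of the hippocampus 23 members were compared, with 2 higher in DOCA-salt, against 4.42% of all genes, and 1 lower, against 3.25%. In cortex 28 were compared, with 4 higher, against 6.0% of all genes, and 1 lower, against 2.18%. The median log2 ratio of the members was 0.02 in hippocampus and 0.21 in cortex, beside 0.02 and 0.04 over all genes. Col1a2 was lower in both: 18 UMIs (1.69 CPM) in DOCA-salt hippocampus, against 35 (7.05 CPM) in sham, and 94 UMIs (3.87 CPM) in DOCA-salt cortex, against 161 (7.30 CPM) in sham, ratios of 0.240 (0.128 to 0.435) and 0.530 (0.407 to 0.688). Col5a2 was higher in both, at 7.41 and 5.85 CPM in DOCA-salt hippocampus and cortex, against 4.83 and 2.68 CPM in sham, with ratios of 1.53 (0.961 to 2.53) and 2.19 (1.60 to 3.01). Markers of other classes in these astrocytes went both ways. Dcn, a fibroblast marker with 3 to 7 UMIs per library, was at 0.563 and 0.124 CPM in DOCA-salt astrocytes, against 1.41 and 0.318 CPM in sham. Of smooth muscle, Acta2 was at 1.03 and 2.06 CPM, against 10.5 and 4.13 CPM, and Tagln at 0.938 and 1.11 CPM, against 5.24 and 1.04 CPM. The pericyte markers Kcnj8 and Vtn were higher: Kcnj8 at 3.56 and 2.47 CPM, against 1.81 and 1.18 CPM, and Vtn at 38.6 and 36.9 CPM, against 37.7 and 19.1 CPM. Their part in the Col1a2 difference was not tested.

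Other astrocyte members were counted in 1 tissue only, and the difference between tissues was not tested. Lama3 was at 25.9 CPM in DOCA-salt hippocampus astrocytes, against 13.3 CPM in sham, a ratio of 1.95 (1.48 to 2.59), and at 17.7 CPM in DOCA-salt cortex, against 22.9 CPM in sham, a ratio of 0.772 (0.677 to 0.880). In cortex Lama5 was at 1.52 (1.25 to 1.85), Col27a1 at 1.51 (1.3 to 1.75) and Col9a2 at 1.77 (0.974 to 3.31). With the median ratio of all genes set to 0, Lama5 was at 1.48 and Col27a1 at 1.47, neither past 1.5-fold. Sparc was at 0.855 (0.825 to 0.887) in hippocampus and 1.25 (1.22 to 1.28) in cortex, and Lama2 at 0.843 (0.800 to 0.889) and 0.908. Col1a1, unlike its partner Col1a2, was at 1.34 (1.14 to 1.58) in cortex. Within 1.5-fold in cortex were also Agrn at 1.47, Nid2 at 1.44 and Lamb2 at 1.16, while Col4a1 and Col4a2 were at 0.790 and 0.756.

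The hippocampus libraries were unevenly spread over some oligodendrocyte clusters, counted over all cells. Here 1 cluster held 1939 DOCA-salt and 374 sham hippocampus cells, and another 118 DOCA-salt and 2375 sham. Other clusters were shared more evenly, such as those with 661 DOCA-salt and 903 sham, and 648 DOCA-salt and 886 sham hippocampus cells. In oligodendrocyte-gated cells 24 members were compared in hippocampus, with Col9a1 and Col9a2 higher, against 7.75% of all genes, and none lower, against 2.42%. In cortex 22 were compared, with 4 higher, against 6.5% of all genes, and none lower, against 2.59%. The members' median log2 ratio was 0.13 in hippocampus and 0.24 in cortex, beside 0.06 and 0.03 over all genes. The ratios in hippocampus were 1.94 (1.48 to 2.55) for Col9a2 and 1.56 (1.14 to 2.14) for Col9a1. Col9a3, the other chain of collagen IX, was at 1.04 in hippocampus and 0.969 in cortex. In cortex Lama5 was at 2.10 (1.22 to 3.72), Col16a1 at 1.78 (1.3 to 2.46), Hspg2 at 1.56 (1.03 to 2.37) and Sparc at 1.54 (1.47 to 1.60). Sparc was at 235 and 291 CPM in DOCA-salt hippocampus and cortex oligodendrocytes, against 186 and 190 CPM in sham. Astrocyte and microglia markers were higher there too: the astrocyte list took 597.5 and 1337 CPM of DOCA-salt oligodendrocytes, against 313 and 983.3 CPM in sham, and the microglia list 581.6 and 497.9 CPM, against 478.9 and 454.1 CPM. Their part in the Sparc difference was not tested.

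In microglia-gated cells 17 members were compared in each tissue. In hippocampus Col11a2 was higher, against 3.66% of all genes, and Lama5, Col9a3 and Col4a2 were lower, against 4.21%, and in cortex Lama5 was higher, against 5.09%, and none was lower, against 2.0%. Their ratios in hippocampus were 1.76 for Col11a2, 0.604 for Lama5, 0.607 for Col4a2 and 0.435 (0.315 to 0.597) for Col9a3, a choroid plexus-abundant member, in the tissue whose sham library carries Ttr at 3810 CPM in this class, against 30.2 CPM in DOCA-salt. The part of Ttr-bearing RNA in the Col9a3 difference was not tested. Microglia held only 105 Lama5 UMIs over all libraries, and the interval of the Lama5 ratio included 1 in both tissues. The astrocyte list took 2545 and 2791 CPM of DOCA-salt microglia in hippocampus and cortex, against 381.5 and 1045 CPM in sham, beside Col11a2, an astrocyte-led member. Levels are given here for 2 markers of this list only. Aqp4 was at 6.2 and 22.1 CPM in these DOCA-salt microglia, against 4.76 and 19.7 CPM in sham, and Slc1a2 at 136 and 329 CPM, against 65.5 and 251 CPM. Both were higher in DOCA-salt than in sham in each tissue, as the list was, but by a smaller factor. The other markers of the list thus carried most of its rise. The part of astrocyte RNA in the Col11a2 difference was not tested. Of the members led by microglia, Sparc was at 0.849 and 0.832 in hippocampus and cortex, and Col27a1 at 1.09 and 1.13, the hippocampus value of Col27a1 being 0.998 in cells thinned to 1000 UMIs.

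**Figure D5:**
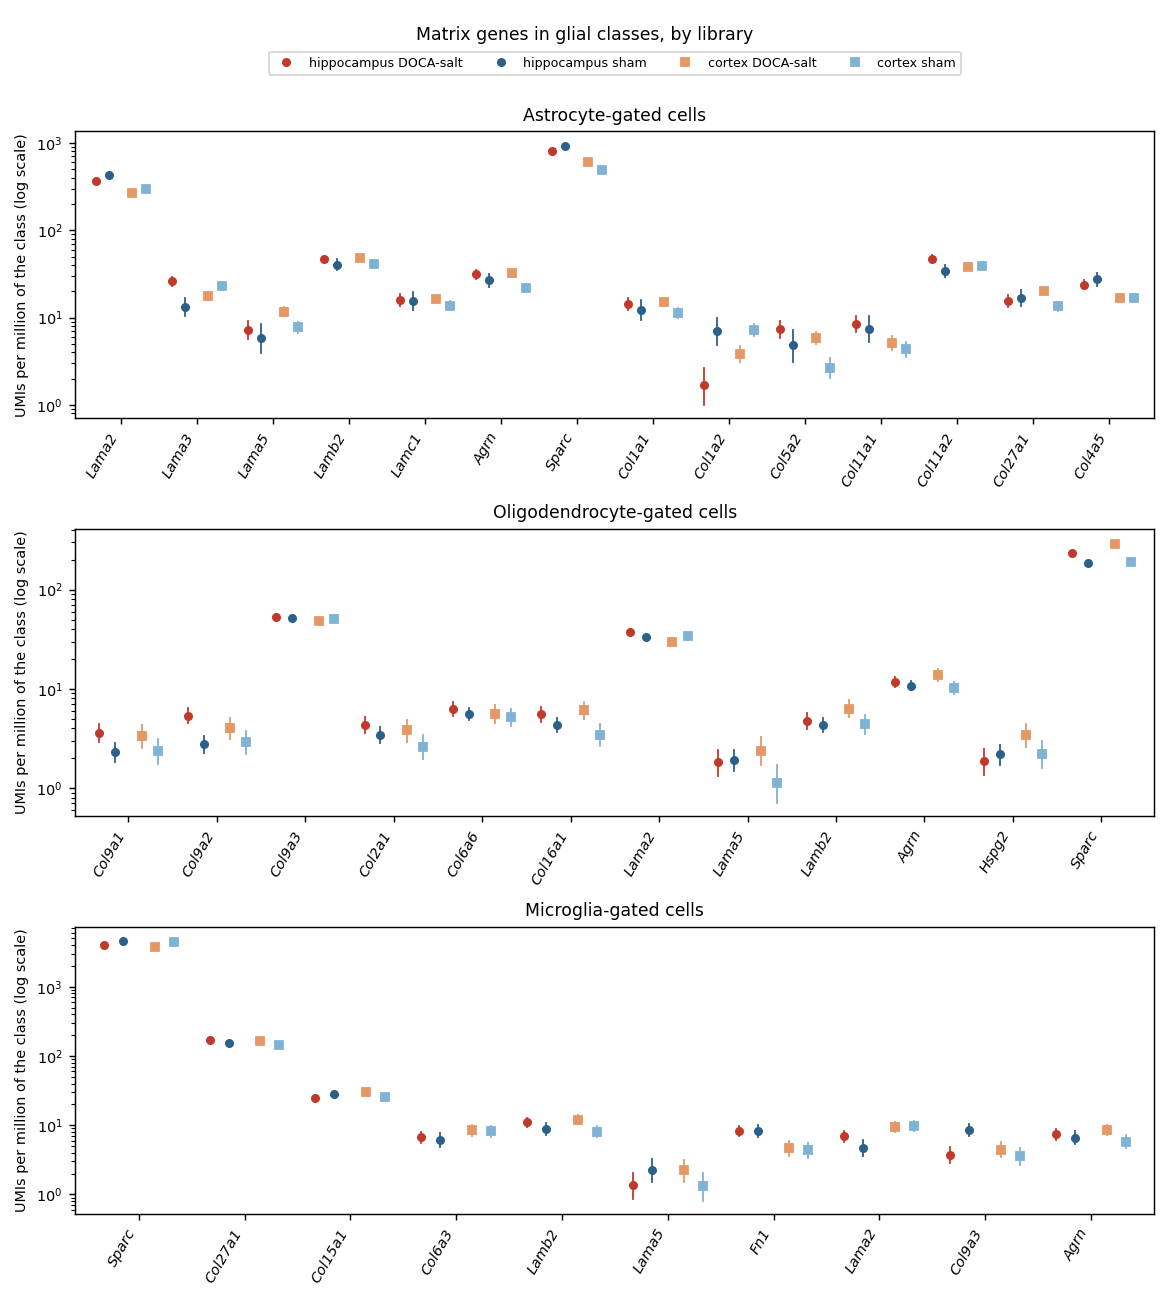
CPM on a log axis, with 95% Poisson intervals, of members in astrocyte-, oligodendrocyte- and microglia-gated cells, with 1 point per library, DOCA-salt beside sham in each tissue. Astrocyte Col1a2 lies lower in both DOCA-salt libraries than in both sham libraries, and microglial Sparc lies lower in both DOCA-salt libraries than in both sham libraries, within 1.5-fold.

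The smaller classes allowed few comparisons. In neuron-gated cells of the hippocampus, 106 in DOCA-salt and 159 in sham, 4 members were compared and 3 were higher, against 5.68% of all genes, with none lower, against 3.82%. Col6a1 and Col6a2, chains of the beaded-filament collagen VI, had 39 UMIs (45.6 CPM) and 36 UMIs (42.1 CPM) in DOCA-salt, against 12 (11.1 CPM) and 21 (19.5 CPM) in sham. Their ratios were 4.09 (2.10 to 8.58) for Col6a1 and 2.16 (1.23 to 3.89) for Col6a2, and Col11a1 was at 1.63 (1.08 to 2.47). In ependymal-gated cells of the hippocampus 4 were compared and none passed 1.5-fold, where 7.01% of all genes were higher and 5.5% lower. In border macrophages Sparc alone could be compared, at 1.08 in hippocampus, where 6.3% of genes were higher and 7.51% lower, and 1.59 (0.974 to 2.67) in cortex, where 5.68% were higher and 7.64% lower.

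The comparison of hippocampus with cortex asks which matrix genes differ between the tissues within a treatment. Few members were counted in the vascular classes. In endothelial cells 14 members were compared in DOCA-salt, with none higher in hippocampus, against 2.19% of all genes, and Lama2 lower, against 5.51%, at 0.562 (0.365 to 0.862). In sham 16 were compared, with none higher, against 3.67%, and Col14a1 lower, against 5.2%, at 0.547 (0.295 to 0.996). In pericytes none of 11 in DOCA-salt passed 1.5-fold, where 7.62% of genes were higher and 6.45% lower, and none of 9 in sham, where 6.15% were higher and 5.81% lower. Lama4 and Lamc3 were thus not counted as differing between the tissues in either vascular class.

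In astrocytes of DOCA-salt mice 31 members were compared, with Col9a2 at 1.95, Col11a1 at 1.66 and Col6a6 at 1.52 higher in hippocampus, against 5.85% of all genes, and Lama5 at 0.617, Col5a3 at 0.602 and Col1a2 at 0.436 lower, against 3.82%. In sham 24 were compared, with 7 higher in hippocampus, against 8.71%, and Lama3 lower, against 5.52%. The 7 were Sparc at 1.91, Col5a2 at 1.81, Col11a1 at 1.71, Col4a5 at 1.62, Col9a3 at 1.60, Col23a1 at 1.55 and Fn1 at 1.51. Sham astrocytes carried Ttr at 4050 CPM in hippocampus and 15.5 CPM in cortex, beside Col9a3, and its part was not tested. Col11a1 was counted in both treatments. Lama3 was at 1.46 in DOCA-salt, with 25.9 CPM in hippocampus and 17.7 CPM in cortex, and at 0.580 in sham, with 13.3 CPM in hippocampus and 22.9 CPM in cortex.

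In microglia 1 of 17 members in DOCA-salt was higher in hippocampus, against 3.06% of genes, and 1 lower, against 5.94%, and in sham 2 of 16 were higher, against 7.5%, and 2 lower, against 5.03%. Fn1 was the member higher in both, at 1.79 in DOCA-salt and 1.88 in sham. Col9a3 was the other member higher in sham, at 2.4, where microglia carried Ttr at 3810 CPM in hippocampus and 12.2 CPM in cortex, whose part was not tested. In oligodendrocytes none of 23 in DOCA-salt was higher, against 2.46%, and 2 were lower, against 5.04%, and in sham 1 of 25 was higher, against 2.96%, and 3 lower, against 5.87%. Col23a1, a membrane collagen, was lower in both, at 0.586 in DOCA-salt and 0.629 in sham. In border macrophages Sparc, the 1 member compared, was at 1.27 (0.904 to 1.82) in DOCA-salt, where 6.42% of genes were higher and 6.39% lower, and at 1.88 (1.19 to 3.05) in sham, counted as higher, where 8.3% were higher and 8.61% lower. By clusters the sham value turned to 0.891. In lymphocyte-gated cells of DOCA-salt, Sparc was at 0.755 (0.418 to 1.39), where 8.26% of genes were higher and 8.89% lower.

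Other genes of matrix assembly were read from 4 lists with 87 genes. In endothelial cells of the hippocampus, 16 genes for collagen processing and crosslinking were compared, with Plod2 higher and Pcolce, Serpinh1 and P4ha2 lower in DOCA-salt (median log2 ratio -0.09), where 5.53% of all genes were higher and 3.45% lower, and in cortex 14, with none higher and P3h1, Serpinh1 and P4ha2 lower (median -0.13), where 4.96% of all genes were higher and 3.27% lower. Of the matrix receptors, 1 of 16 was higher and 1 lower in hippocampus (median -0.01), and 1 of 15 higher and 3 lower in cortex (median -0.13). The collagen receptor Ddr1 was the lower one in hippocampus and the higher one in cortex. Of the proteases and inhibitors, 2 of 12 were higher and none lower in hippocampus (median 0.07), and 1 of 11 higher and none lower in cortex (median 0.11). Of the TGF-beta pathway, 1 of 16 was higher and 2 lower in hippocampus (median -0.05), and 1 of 15 higher and 1 lower in cortex (median -0.02), beside medians over all genes of 0.03 and 0.02. In pericytes 6 processing genes were compared in hippocampus, with 1 higher and 1 lower (median 0.17), where 6.91% of all genes were higher and 6.91% lower. In cortex 4 were compared, with none past 1.5-fold (median -0.43), where 8.37% were higher and 5.88% lower. The other lists held 5 to 9 compared genes in hippocampus pericytes and 4 to 7 in cortex.

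Serpinh1, the collagen-specific chaperone HSP47, was lower in endothelial cells of both DOCA-salt libraries, at 196 and 197 CPM in hippocampus and cortex, against 316 and 321 CPM in sham, ratios of 0.620 and 0.613. It was at 440 and 451 CPM in DOCA-salt pericytes, against 744 and 670 CPM in sham, ratios of 0.591 and 0.674. Over all classes and tissues Serpinh1 was compared 12 times, was below 1 in 11 of these and at least 1.5-fold lower in 5, with ratios of 0.584 to 1.01. P4ha2, a subunit of the prolyl hydroxylase that stabilises collagen helices, was at 12.1 and 14.9 CPM in DOCA-salt endothelial cells of hippocampus and cortex, against 29.5 and 30.9 CPM in sham, and below 1 in all 5 of its comparisons. P4ha1, another subunit, was below 1 in 13 of 14 comparisons, with ratios of 0.519 to 1.47 and 2 at least 1.5-fold lower.

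Genes on the other side included Tgfb2, for the ligand TGF-beta 2, at 122 and 127 CPM in DOCA-salt endothelial cells of hippocampus and cortex, against 75.9 and 83.7 CPM in sham, ratios of 1.60 and 1.52. Adamts9, a matrix protease, was at 30.8 CPM in DOCA-salt cortex endothelial cells, against 13.8 CPM in sham, and was also counted as higher in hippocampus. Adamts1, another such protease, was at least 1.5-fold higher in 4 of 10 comparisons, with ratios of 0.699 to 1.71. In the treatment comparisons of the classes, 3.66% to 8.37% of all genes compared were at least 1.5-fold higher. In microglia Mmp14, a membrane matrix protease, was at 1.66 in hippocampus and 1.75 in cortex, and Itga6, the alpha 6 subunit of laminin-binding integrins, at 0.513 and 0.595.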

How the data were processed

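The authors deposited 1 matrix of UMI counts per library, unnormalized whole numbers per gene and cell barcode. Per the submitters' processing notes fastp, STAR, Subread and Seurat were used with build GRCm38, and their versions, the annotation and the strand setting are not given in the sources used here. Barcodes entered when 300 genes or more were detected and mitochondrial UMIs made up 20% or less. A cell's score for each marker list was the mean of log2(1 + UMIs per 10000), less the library's 25th percentile. A class needed a score of at least 1 and a next score of at most 0.5 of it. The marker lists were fixed before the files were read, the scoring rule after. Related lists (pericyte and smooth muscle, microglia and border macrophage, oligodendrocyte and its precursor) were exempt from the second limit. Scrublet marked 4.27% to 6.65% of cells, which stayed in except in an alternative. UMIs were summed per class and library, with exact Poisson intervals for CPM and exact conditional binomial intervals for ratios. Genes named in each comparison were the 5 highest and 5 lowest by the interval bound nearest to 1, plus the main vascular members, those counted past 1.5-fold and members led by 1 class. The members, lists and rules were chosen with earlier results of these data known. The script was tested on simulated data. Promoters came from RefSeq, with a window for 42 members. The values of 1 member are not reported here. Python 3.11.15, NumPy 2.4.6, SciPy 1.17.1, pandas 2.3.3, Scanpy 1.11.5, leidenalg 0.10.2 and Matplotlib 3.10.9 were used.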

Additional observations from a re-analysis of the deposited data

Results flagged for a closer look

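In 3 members the intervals of the DOCA-salt to sham ratio lay on opposite sides of 1 in the 2 tissues, and the difference between tissues was not tested, since each group is 1 library. Astrocyte Sparc was at 0.855 in hippocampus and 1.25 in cortex. Astrocyte Lama3 was at 1.95 in hippocampus and 0.772 in cortex. Oligodendrocyte Lama2 was at 1.11 in hippocampus and 0.887 in cortex. A separate signal lay in cells that no comparison used: 55.9% of Col3a1 UMIs and 61.6% of Col28a1 UMIs were in barcodes outside every class. The vascular cluster's cells of more than 1 class held 51.1% of all Col3a1 UMIs and 53.5% of all Col28a1 UMIs. Col28a1 encodes a collagen known from Schwann cells of peripheral nerve.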

How the results depend on the processing

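No paired analysis was possible because each group has 1 library. Of the alternative values, 1436 for single genes and 344 for counts stayed close to the reported ones, 82 and 115 moved, and 4 reversed. The 4 reversals were Col16a1 in hippocampus oligodendrocytes (1.28, and 0.773 in thinned cells), Col27a1 in hippocampus microglia (1.09, and 0.998 in thinned cells), Lama2 in microglia of hippocampus over cortex in DOCA-salt (0.744, and 1.03 with equal weight per cell) and Sparc in border macrophages of hippocampus over cortex in sham (1.88, and 0.891 by clusters). The cause was not tested. Over the alternatives endothelial Lama4 ranged from 2 to 3.28 in hippocampus and 1.87 to 2.34 in cortex, and Lamc3 from 0.450 to 0.677 and 0.295 to 0.537. Most counts are of 0 to 7 members, so a single gene moves them by over 1.5 times. With a minimum of 20 UMIs, which tests more genes, moved counts became 1 to 12 (4 to 12 for members higher in cortex astrocytes, 7 to 12 for those higher in sham hippocampus over cortex astrocytes, 6 to 10 for matrix list genes lower in hippocampus endothelial cells), with other counts at 1, 2, 3, 4, 5, 6, 7 and 8. With cells thinned to 1000 UMIs, which leaves fewer genes to compare, moved counts became 0, 1, 2, 3 or 4. By clusters the leading-class counts were 17 for endothelial, 16 for astrocyte and 0 for border macrophage classes, and other moved counts were 1, 2, 3 and 4; pericyte comparisons could not be run. Moved counts became 1, 2, 3 or 4 with equal weight per cell, 2 with the median of all genes set to 0, 3 or 4 without mitochondrial, ribosomal and haemoglobin genes, 1 or 2 with the stricter cell filter, 0 to 3 with the stricter gate and 1, 2 or 3 without Scrublet doublets. Chosen after seeing the data, endothelial cells without UMIs of the 5 activation genes gave 0, 1, 3 and 4, and vascular-cluster cells in place of pericytes gave 1, 2 and 3. With all UMIs in the total, or without mitochondrial, ribosomal and haemoglobin genes, the median log2 ratio of all genes lay between -0.06 and 0.07. Pericyte results rest on few cells and UMIs.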
